A study of Mus musculus with 5 samples.

Results

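SUZ12 peaks whose centre lay within 1000 bp of the start site of exactly 1 gene are described here, and are called start-centred peaks below. They numbered 4644 of the 9793 SUZ12 peaks linked to a gene within 5000 bp (47.4%), summed over 4 chromatin immunoprecipitation (ChIP-seq) libraries of mouse embryonic stem cells (ESCs). A peak was taken where all lines of a deposited table together linked its name to 1 gene symbol within 5000 bp, and where the signed distance of its centre from that start site ran from -1000 to +1000 bp. All 4 cultures were male ESCs of strain 129SV with Mbd3 knocked out, kept in conventional medium with LIF, and precipitated with the same SUZ12 antibody. They are labelled by what the knockout cells carried: deltaMBD and deltaCC (ΔMBD and ΔCC below, forms of MBD3a without the methyl-CpG-binding domain or without the coiled-coil domain), WT (taken as full-length MBD3) and GFP (taken as the control without MBD3). Each has 1 library. The sources used here do not say how the constructs were delivered, how strongly they were expressed, or whether a culture was 1 clone. Peak tables hold no expression values, so the cell type could not be checked against its markers. An input library from cells labelled EBRTcH3 was not analysed here.

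SUZ12 is a core subunit of PRC2, the Polycomb complex that methylates lysine 27 of histone H3 and keeps developmental genes silent. In ESCs it is known to bind start sites in unmethylated stretches rich in the dinucleotide CpG, above all at genes of later lineages. MBD3 is a subunit of NuRD, a complex that deacetylates histones and remodels nucleosomes. Its methyl-CpG-binding domain binds methylated DNA poorly in mammals, and its coiled coil serves contacts with partner proteins.

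The DNA just before the start sites of 6 genes is printed as an example of each pattern of libraries. Whether a peak covers these bases is unknown, since the tables used here give no peak widths. The first pair, Foxd3 and Efhd1, had a start-centred peak at nearly the same place in all 4 libraries. The next pair, Ebf4 and Klhdc8a, had one in ΔMBD and WT and no linked peak in ΔCC or GFP. For Celsr2 and Gm13288 it was the reverse, with peaks in ΔCC and GFP and none in ΔMBD or WT. The 250 bases before the RefSeq start (build GRCm38.p6) run 5′ to 3′ on the gene's strand, with each CpG in capitals. They stem from chr4:99656049-99656298 for Foxd3, chr1:87264103-87264352 for Efhd1, chr2:130295689-130295938 for Ebf4, chr1:132298376-132298625 for Klhdc8a and chr4:88805281-88805530 for Gm13288, all on the plus strand, and from chr3:108415580-108415829 for Celsr2 on the minus strand. The peaks were called on mm9 and their coordinates are not in the tables used here, so the start sites of both sources may differ.
Foxd3: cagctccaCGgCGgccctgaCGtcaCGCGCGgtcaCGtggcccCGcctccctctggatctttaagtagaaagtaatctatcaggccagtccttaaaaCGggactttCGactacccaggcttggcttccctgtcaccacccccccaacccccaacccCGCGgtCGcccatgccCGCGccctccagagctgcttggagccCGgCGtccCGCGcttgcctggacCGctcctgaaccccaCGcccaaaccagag
Efhd1: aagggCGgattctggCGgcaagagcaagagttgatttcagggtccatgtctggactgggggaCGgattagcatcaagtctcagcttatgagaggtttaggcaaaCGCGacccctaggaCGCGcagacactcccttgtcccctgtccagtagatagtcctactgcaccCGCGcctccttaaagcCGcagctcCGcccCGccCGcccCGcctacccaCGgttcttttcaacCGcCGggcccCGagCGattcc
Ebf4: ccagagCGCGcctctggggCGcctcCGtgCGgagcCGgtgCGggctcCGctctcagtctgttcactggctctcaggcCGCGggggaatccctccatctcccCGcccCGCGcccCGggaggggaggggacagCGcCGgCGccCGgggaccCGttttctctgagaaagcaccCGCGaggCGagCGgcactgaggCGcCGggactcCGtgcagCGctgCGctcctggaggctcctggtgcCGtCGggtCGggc
Klhdc8a: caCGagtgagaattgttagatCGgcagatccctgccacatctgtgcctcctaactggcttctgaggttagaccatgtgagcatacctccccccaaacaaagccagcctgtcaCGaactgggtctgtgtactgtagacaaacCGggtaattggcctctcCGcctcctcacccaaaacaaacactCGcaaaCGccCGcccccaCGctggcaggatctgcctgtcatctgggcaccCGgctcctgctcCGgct
Celsr2: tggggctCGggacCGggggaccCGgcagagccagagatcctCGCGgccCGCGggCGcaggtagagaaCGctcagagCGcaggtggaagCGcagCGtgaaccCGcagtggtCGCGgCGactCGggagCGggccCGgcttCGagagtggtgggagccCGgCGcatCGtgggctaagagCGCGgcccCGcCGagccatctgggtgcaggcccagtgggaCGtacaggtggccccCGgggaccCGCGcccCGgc
Gm13288: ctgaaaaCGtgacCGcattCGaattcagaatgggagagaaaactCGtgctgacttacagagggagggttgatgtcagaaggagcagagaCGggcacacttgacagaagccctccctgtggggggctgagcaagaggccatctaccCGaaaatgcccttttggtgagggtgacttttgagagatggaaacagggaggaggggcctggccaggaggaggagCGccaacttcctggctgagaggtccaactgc
Foxd3 held 21 CpGs in these bases, Efhd1 19, Ebf4 31, Klhdc8a 11, Celsr2 32 and Gm13288 7. Over all 32851 promoters of the RefSeq table the median was 6, and 92.1% held at least 1 (the letters CG, which read the same on both strands). Celsr2 and Ebf4 thus lay high among all promoters, with 96.0% and 95.4% of them holding at most as many, and Gm13288 lay near the middle at 57.0%. A count over all genes with a start-centred peak is void, since the table had a promoter for 1148 of 1627 of them (70.6%), under the 80% needed.

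The 4 libraries differed in how many start-centred peaks they held. There were 1423 in ΔMBD, at 1168 genes, 1017 in ΔCC, at 851 genes, 1363 in WT, at 1175 genes, and 841 in GFP, at 687 genes. They made up 47.7% of the linked peaks in ΔMBD, 45.3% in ΔCC, 51.0% in WT and 44.4% in GFP. Most genes had a single start-centred peak: 930 in ΔMBD, 697 in ΔCC, 996 in WT and 542 in GFP. No gene had more than 3 in any library. In ΔMBD 17 genes reached 3, against 12 in ΔCC, 9 in WT and 9 in GFP. A further 50 peaks in ΔMBD, 39 in ΔCC, 41 in WT and 34 in GFP lay as close to a start site but were linked to a second gene, and were left out. Reads and peak heights are not given, so library depth and peak strength are unknown. With 1 library per group there is no replicate check and no p-value. The intervals below are exact 95% binomial (Clopper-Pearson) and cover counting error over peaks or genes only.

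The centres lay mostly downstream of the start, inside the transcribed part of the gene. In ΔMBD 69.3% (interval 66.8 to 71.7) were at or downstream of it, in ΔCC 69.1% (66.2 to 72.0), in WT 71.4% (68.9 to 73.8) and in GFP 67.8% (64.5 to 70.9). The median centre was at +327 bp in ΔMBD, +313 bp in ΔCC, +323 bp in WT and +330 bp in GFP. The 4 profiles therefore differed little, and all intervals of the downstream share overlapped. In each library the 200 bp from the start onward held fewer centres than the next 200 bp. The first of these bins held 143 centres in ΔMBD, 102 in ΔCC, 150 in WT and 78 in GFP, and the second 206 in ΔMBD, 168 in ΔCC, 230 in WT and 109 in GFP. The fullest bin was 400 to 600 bp in ΔMBD (16.0%) and GFP (17.2%), and 200 to 400 bp in ΔCC (16.5%) and WT (16.9%). Centres within 100 bp of the start were few, at 7.94% in ΔMBD, 7.87% in ΔCC, 9.32% in WT and 8.20% in GFP. The position was part of the rule that chose the peaks, and these values describe it only. Peaks that were the sole linked peak of their gene lay more often downstream, at 78.5% in ΔMBD, 78.2% in ΔCC, 79.6% in WT and 78.7% in GFP.

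**Figure D1:**
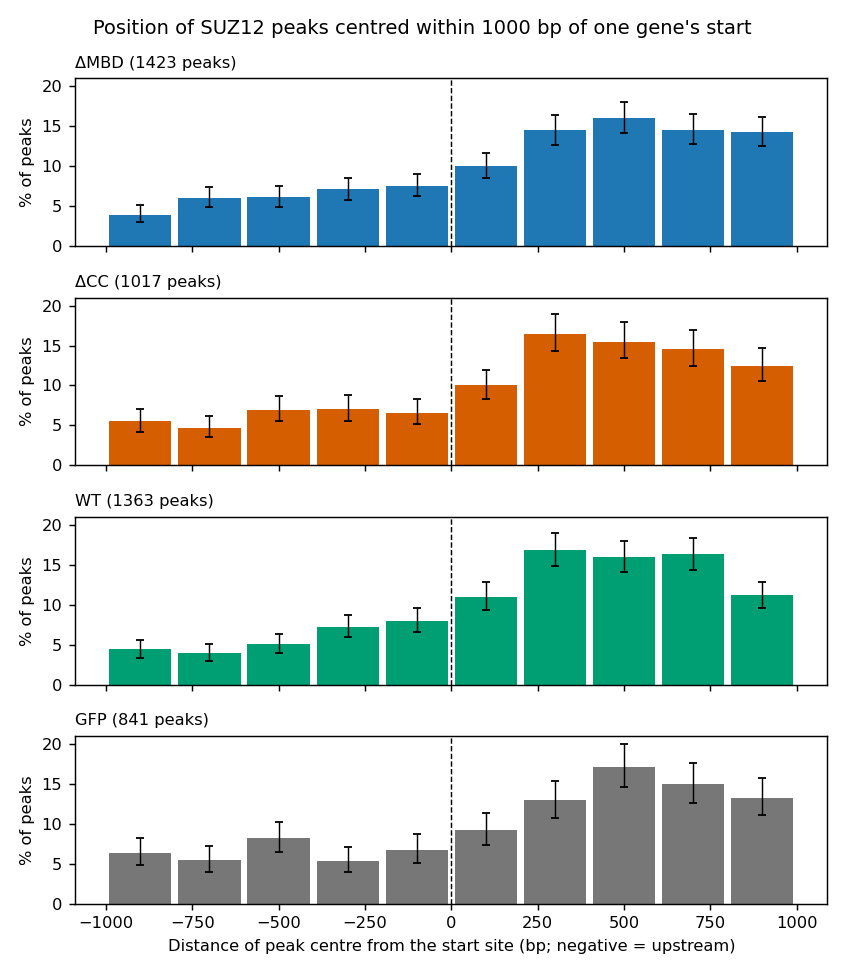
Share of the start-centred peaks of each library (y axis, %) by the distance of the peak centre from the start site (x axis, bp, bins of 200 bp, dashed line at the start). Bars are shares and whiskers exact 95% binomial intervals; in all 4 libraries the bars downstream of the start are higher than those upstream, and the median centres lie between +313 and +330 bp.

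At the limit of the window the choice of peaks turned on a few bases. Just inside on the upstream side lay a ΔMBD peak of Dhh at -990 bp, a ΔCC peak of Pcdh19 at -991 bp, a WT peak of Trim47 at -999 bp and a GFP peak of Tdrd6 at -998 bp. Just outside lay Ebf1 at -1001 bp in ΔMBD, Gm9945 at -1006 bp in ΔCC, Htr1b at -1001 bp in WT and 5730596B20Rik at -1010 bp in GFP. Downstream, Elf2 at +1000 bp in ΔMBD, Cebpa at +995 bp in ΔCC, Pdzrn4 at +1000 bp in WT and Adcy8 at +1000 bp in GFP were inside. Metrnl at +1003 bp in ΔMBD, Hoxb13 at +1002 bp in ΔCC, Gfra2 at +1002 bp in WT and Nog at +1003 bp in GFP were outside.

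A start-centred peak was called matched when another library had a linked peak at the same gene with its centre within 1000 bp. Between ΔMBD and WT most were matched. Of the 1423 ΔMBD peaks, 81.4% (79.3 to 83.4) had a WT match, beside 72.1% of all linked ΔMBD peaks, and of the 1363 WT peaks 83.1% (81.0 to 85.1) had a ΔMBD match, beside 77.2% of all linked WT peaks. Matches of WT peaks in ΔCC and GFP were fewer. In ΔCC 53.8% (51.1 to 56.5) of the WT peaks had a match, beside 52.0% of all linked WT peaks, and in GFP 45.0% (42.4 to 47.7), beside 43.5%. These shares lay near those of all linked peaks and give no result about the start-centred ones. In ΔMBD the shares were similar to those of WT, with 52.6% (50.0 to 55.3) matched in ΔCC, beside 50.0% of all, and 43.4% (40.8 to 46.1) in GFP, beside 41.3%.

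In the other direction, from the shorter lists, matches were frequent. Of the 1017 ΔCC peaks, 77.8% (75.1 to 80.3) had a match in ΔMBD, beside 68.0% of all linked ΔCC peaks, 78.7% (76.0 to 81.1) in WT, beside 66.4%, and 69.9% (67.0 to 72.7) in GFP, beside 63.8%. Of the 841 GFP peaks, 77.9% (74.9 to 80.6) had a match in ΔMBD, beside 67.5% of all linked GFP peaks, 82.2% (79.4 to 84.7) in ΔCC, beside 73.6%, and 79.9% (77.0 to 82.6) in WT, beside 65.9%. ΔCC held fewer linked peaks than WT or ΔMBD, and still matched at least as many GFP peaks. With centres allowed to lie 2000 bp apart that order was gone, at 91.1% in ΔMBD, 91.2% in ΔCC and 92.2% in WT.

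Set against the other linked peaks of the same library, start-centred peaks had the higher matched share in all 12 ordered pairs. These count each pair of libraries in both directions. The difference was largest for GFP peaks in WT, with 79.9% against 54.8% (51.7 to 57.8) of the other GFP peaks, 25.2 points. It was smallest for WT peaks in GFP, with 45.0% against 42.0% (39.3 to 44.7) of the other WT peaks, 3.08 points. The intervals overlapped in 4 of the 12 pairs, those of WT peaks in ΔCC and in GFP and of ΔMBD peaks in ΔCC and in GFP. Those 4 pairs give no result about the start-centred peaks. Start-centred peaks made up 47.4% of all linked peaks, so linked peaks were dense near the start and offered more possible partners there. How much of the difference this gives was not tested. A peak close to 5000 bp also has part of its match distance cut off. With other peaks limited to those within 4000 bp, a limit chosen after the values had been seen, the differences ran from 1.74 to 21.0 points and kept their direction. No test of these differences was made, since 1 library per group gives none.

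**Figure D2:**
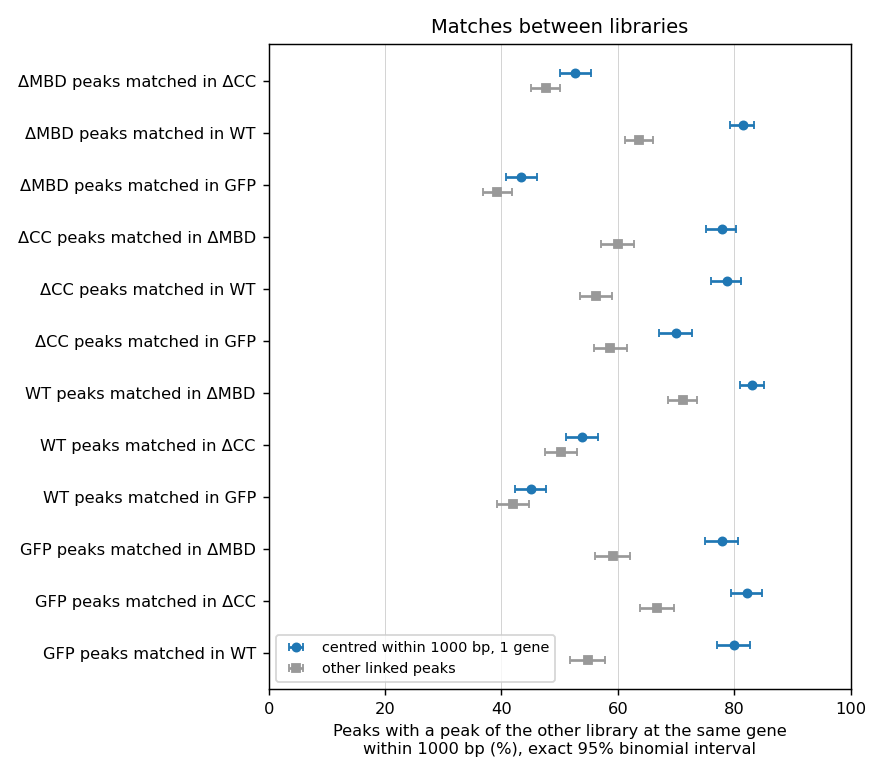
For each ordered pair of libraries (rows), the share of peaks with a peak of the other library at the same gene centred within 1000 bp (x axis, %), for start-centred peaks (circles) and the other linked peaks of the same library (squares), with exact 95% binomial intervals. The circle lies right of the square in all 12 rows, from 3.08 points for WT peaks in GFP to 25.2 points for GFP peaks in WT.

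Where a WT start-centred peak had no match in ΔCC or GFP, the gene as a whole was usually not listed. For ΔMBD both kinds were closer in number, with 127 peaks at unlisted genes and 103 at genes with more distant peaks. In ΔMBD 9.32% of the WT peaks belonged to a gene with no linked peak, and 7.56% to a gene whose linked peaks all lay over 1000 bp away. In ΔCC these shares were 40.1% and 6.16%, and in GFP 48.2% and 6.75%. Over all listed WT genes, 90.0% were listed in ΔMBD, 65.9% in ΔCC and 58.8% in GFP. The share of WT peaks at unlisted genes thus followed the order seen over all WT genes. Unmatched GFP peaks were more often of the other kind, and GFP also listed the fewest genes (1051, against 1664 in WT). In ΔMBD 5.71% of all GFP start-centred peaks belonged to an unlisted gene and 16.4% to a gene with more distant peaks. The shares were 7.02% and 10.8% in ΔCC, and in WT 5.11% (43 peaks) and a further 126 peaks. Of the WT peaks that were the sole linked peak of their gene, 79.2% were matched in ΔMBD, 49.0% in ΔCC and 40.7% in GFP. At genes with 3 or more linked WT peaks the shares were 87.3% in ΔMBD, 60.6% in ΔCC and 47.5% in GFP. WT peaks upstream of the start were matched less often than those at or downstream of it. In ΔMBD 79.0% (74.6 to 82.9) upstream compared with 84.8% (82.4 to 87.0) downstream, in ΔCC 46.7% (41.6 to 51.8) with 56.6% (53.4 to 59.8), and in GFP 39.5% (34.6 to 44.5) with 47.3% (44.1 to 50.5). The intervals were apart for ΔCC and overlapped narrowly for ΔMBD and GFP. Most start-centred peaks of every library lay downstream, so an upstream peak may have fewer possible partners within 1000 bp, which was not tested.

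Counted by genes, WT also shared more with ΔMBD than with ΔCC or GFP. Of the 1175 genes with a WT start-centred peak, 901 (76.7%, interval 74.2 to 79.1) had one in ΔMBD, 620 (52.8%, 49.9 to 55.7) in ΔCC and 525 (44.7%, 41.8 to 47.6) in GFP. With any linked peak counted, 90.1% were listed in ΔMBD, 61.2% in ΔCC and 53.5% in GFP, beside 90.0% of all listed WT genes in ΔMBD, 65.9% in ΔCC and 58.8% in GFP. Genes with a WT start-centred peak were thus listed no more often than all WT genes in ΔMBD, and less often in ΔCC and GFP. Of the 687 genes with a GFP start-centred peak, 514 (74.8%) had one in ΔMBD, 528 (76.9%) in ΔCC and 525 (76.4%) in WT. Over all libraries 1627 genes had a start-centred peak at least once. The largest group, 374 genes (23.0%), had one in every library, and the next, 298 genes (18.3%), in ΔMBD and WT only. Of those 298, 271 had no linked peak at all in ΔCC or GFP. In ΔCC and GFP only, 51 genes had one, and 18 of the 51 had no linked peak in ΔMBD or WT. Genes with one in a single library and no linked peak in the other 3 numbered 94 in ΔMBD, 26 in ΔCC, 97 in WT and 5 in GFP. The number of listed genes differed too, at 1677 in ΔMBD, 1221 in ΔCC, 1664 in WT and 1051 in GFP. These patterns were not counted over all listed genes, so their numbers give no result about start-centred ones.

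Centres at shared genes differed between libraries in position, with no shared direction. At the genes with exactly 1 start-centred peak in both libraries, the median size of the difference was 282 bp between ΔMBD and ΔCC (403 genes), 259 bp between ΔMBD and WT (599), 283 bp between ΔMBD and GFP (323), 237 bp between ΔCC and WT (426), 265 bp between ΔCC and GFP (321) and 270 bp between WT and GFP (347). The signed median ran from -20 to 23 bp. Between 19.5% and 23.5% of the pairs lay within 100 bp of each other. At 160 genes with exactly 1 start-centred peak in every library, the centres spread over a median of 561 bp, and at 97 of them all 4 lay on the same side of the start, downstream in 86. The choice of start-centred peaks caps these differences, since both centres must lie within 1000 bp.

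The 6 genes with the smallest spread show how close centres could be. Foxd3, a forkhead factor needed for neural crest, had a centre at +566 bp in ΔMBD, +561 bp in ΔCC, +565 bp in WT and +535 bp in GFP. That peak was alone in ΔMBD and WT, and was 1 of 7 linked peaks in ΔCC and in GFP, of which ΔCC had a further start-centred one at -727 bp. Foxf1, a forkhead factor of the lateral mesoderm, had its centre at +409 bp in ΔMBD, +541 bp in ΔCC, +552 bp in WT and +503 bp in GFP. Pou3f3, a POU factor of the brain and kidney, had +465 bp in ΔMBD, +583 bp in ΔCC, +443 bp in WT and +597 bp in GFP. The other genes of the 6 were Efhd1, a mitochondrial calcium-binding protein, Fam19a5, a secreted protein of the brain, and Nrp1, a receptor for semaphorins and VEGF. Their closest centres lay between +174 and +380 bp in all 4 libraries.

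At the other end were genes with 1 start-centred peak in every library and a wide spread. At Satb1, an organiser of chromatin, it lay at +983 bp in ΔMBD, -906 bp in ΔCC, +235 bp in WT and -596 bp in GFP, a range of 1889 bp. At Fst, which encodes follistatin, an antagonist of activins, it lay at +866 bp in ΔMBD, -833 bp in ΔCC, +882 bp in WT and +291 bp in GFP. Kcnc4 (a potassium channel), Rax (a homeobox factor of the eye) and Fezf1 (a zinc finger factor of the forebrain) followed, with ranges from 1639 to 1670 bp. ΔMBD, ΔCC and GFP each had a second linked peak of Satb1 just outside the window, at -1113 bp in ΔMBD, +1043 bp in ΔCC and +1197 bp in GFP. In these 3 libraries Satb1 thus had a peak on each side of the start, and the window took 1 of them.

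Among the 271 genes with a start-centred peak in ΔMBD and WT and no linked peak in ΔCC or GFP, some centres lay almost on the start. Ebf4, a helix-loop-helix factor of the EBF family, had one at +14 bp in ΔMBD and -48 bp in WT. Klhdc8a, a Kelch domain protein, had a pair at -17 and +698 bp in ΔMBD and at -45 and +570 bp in WT. Prtg (protogenin, a membrane protein of the early embryo) had +22 and +958 bp in ΔMBD and -71 bp in WT. Disc1, a scaffold protein of developing neurons, had a ΔMBD centre at 0 bp and another at +828 bp, and a WT centre at -110 bp. Mras, a small GTPase of the Ras family, had +49 bp in ΔMBD and +71 bp in WT, and St8sia6, a sialyltransferase, +124 and -583 bp in ΔMBD and +2 bp in WT.

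Of the 1627 genes with a start-centred peak in any library, 18 had the reverse pattern. They included 4 of the 29 Hox genes with such a peak. ΔCC and GFP also listed more Hox genes with any linked peak, 35 in ΔCC and 34 in GFP, against 23 in ΔMBD and 20 in WT. Hoxb3 had start-centred peaks at -961 and +371 bp in ΔCC and +241 bp in GFP, Hoxd8 at +501 bp in ΔCC and +616 bp in GFP, Hoxd9 at +617 bp in ΔCC and +544 bp in GFP, and Hoxd13 at +430 bp in ΔCC and +589 bp in GFP. Celsr2, a cadherin of planar cell polarity, had +106 bp in ΔCC and -89 bp in GFP. Slc22a3, an organic cation transporter, had +316 bp in ΔCC and -196 bp in GFP, and Arid1b, a subunit of the BAF remodelling complex, +382 bp in ΔCC and +173 bp in GFP. Gm13288, Gm13275 and H2-Q6 were also among them. They belong to families of near-identical or closely related copies, the interferon zeta cluster and the class I histocompatibility genes, between which reads can be divided, and their peaks are uncertain.

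**Figure D3:**
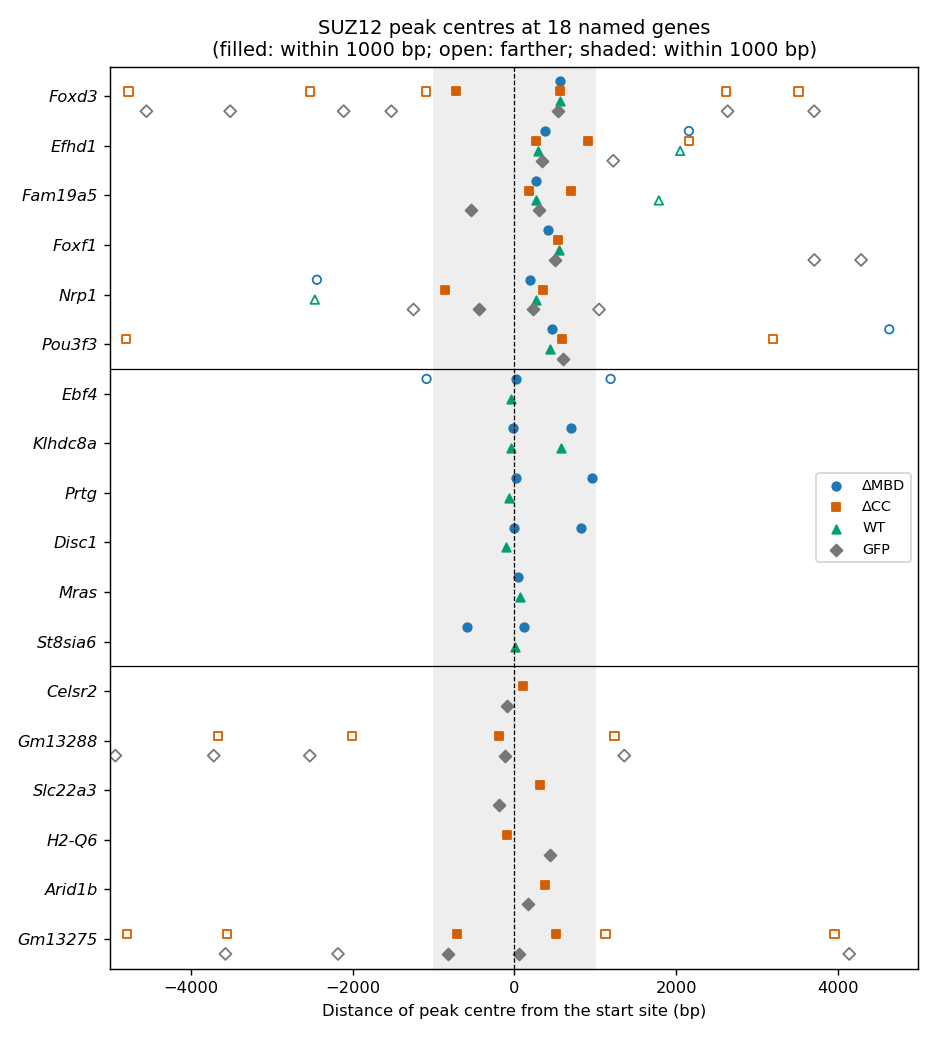
Distance of every linked SUZ12 peak centre from the start site (x axis, bp) at 18 genes (rows) in ΔMBD, ΔCC, WT and GFP; filled symbols lie within 1000 bp (shaded) and open ones farther away. The upper 6 genes have a filled symbol in all 4 libraries, the middle 6 in ΔMBD and WT only, and the lower 6 in ΔCC and GFP only.

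Genes with a start-centred peak in 1 library and no linked peak in the others included some of known function. In ΔMBD these were Sstr2, a somatostatin receptor, at +18 and +532 bp, Irak3, a brake on Toll-like receptor signalling, at -23 bp, and Bok, a BCL2 family member, at +28 bp. In ΔCC they were Scara3 (a scavenger receptor) at +30 bp, Adcy9 (an adenylyl cyclase) at +31 bp and Fam134a at +67 bp. In WT they were Tnfsf11, the ligand RANKL, at -23 bp, Prrt4 at +26 bp and Cttnbp2, a cortactin-binding protein, at -42 and +597 bp. In GFP the closest were 9030612E09Rik at +323 bp, Mixl1, a mesendoderm homeobox factor, at -462 bp, and Syn2, a synapsin, at +484 bp.

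The classes of genes with start-centred peaks were counted with 17 lists defined by gene symbol. Of the 21900 protein-coding symbols, 5.16% had one in ΔMBD, 3.76% in ΔCC, 5.23% in WT and 3.08% in GFP. In each library the lists of developmental transcription factors and signalling genes stood above these shares. The list called homeobox genes outside the Hox clusters holds 131 symbols, chosen by name and not by protein domain, with Pax1 among them. Of these, 46 (35.1%) had a start-centred peak in ΔMBD, 55 (42.0%) in ΔCC, 45 (34.4%) in WT and 49 (37.4%) in GFP. The basic helix-loop-helix list, also chosen by name, holds 58 symbols, with Ebf1 and Ebf4 of the EBF family among them. Of these, 24 had a start-centred peak in ΔMBD, 24 in ΔCC, 22 in WT and 18 in GFP. In all 4 libraries 14 had one, among them Neurog2, which drives neurons, and Twist1 of the mesoderm. Of 49 genes of Wnt signalling, 22 had one in ΔMBD, 19 in ΔCC, 20 in WT and 16 in GFP. Of 44 forkhead genes, 11 had one in ΔMBD, 11 in ΔCC, 10 in WT and 13 in GFP, and of 71 zinc finger factors 18 in ΔMBD, 21 in ΔCC, 18 in WT and 19 in GFP. The short lists of Sox and T-box factors moved by few genes. Of 19 Sox genes, 7 had one in ΔMBD, 4 in ΔCC, 8 in WT and 7 in GFP, and of 17 T-box genes 8 in ΔMBD, 6 in ΔCC, 7 in WT and 6 in GFP. None of the 15 housekeeping genes had one in any library, which allows a share of up to 20.0% (3 genes of the 15, the limit that a count of 0 allows), so the list is too short to show depletion.

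Homeobox genes with a start-centred peak were no fewer in ΔCC and GFP than in WT. Those of ion channels and transporters were fewer, as were all protein-coding genes with one. Although GFP held fewer start-centred genes than WT in total (674 against 1145 protein-coding), it held slightly more of the homeobox genes, 49 against 45. With any linked peak counted, the homeobox genes listed were 107 in GFP and 110 in WT. Forkhead genes (13 in GFP, 10 in WT) and zinc finger factors (19 in GFP, 18 in WT) had the same order as the start-centred homeobox genes. Helix-loop-helix, Sox and T-box genes were fewer in GFP than in WT. Within 500 bp the homeobox counts were 16 in ΔMBD, 25 in ΔCC, 13 in WT and 15 in GFP, so GFP still exceeded WT but no longer ΔMBD. Of 171 ion channel genes, 44 had a start-centred peak in ΔMBD, 27 in ΔCC, 44 in WT and 19 in GFP. Of 369 solute carriers, 32 had one in ΔMBD, 18 in ΔCC, 33 in WT and 15 in GFP. Of all 1627 genes with a start-centred peak in any library, 271 had one in ΔMBD and WT and no linked peak in ΔCC or GFP. Of the 53 channels and 41 carriers with one in any library, 11 in each list had that pattern. Whether these shares differ was not tested.  The 11 channels and 11 carriers are examples of it. They included Cacna1b, a pore subunit of calcium channels, at +764 bp in ΔMBD and +631 bp in WT, and Slc1a2, the glial glutamate transporter, at +208 and +910 bp in ΔMBD and +315 bp in WT. All protein-coding genes with a start-centred peak numbered 1131 in ΔMBD, 823 in ΔCC, 1145 in WT and 674 in GFP, and the next 3 lists were likewise lowest in GFP. Of 108 axon guidance and adhesion genes, 29 had a start-centred peak in ΔMBD, 27 in ΔCC, 30 in WT and 19 in GFP. Of 138 matrix genes it was 26 in ΔMBD, 24 in ΔCC, 29 in WT and 16 in GFP, and of 120 neurotransmitter receptors 25 in ΔMBD, 25 in ΔCC, 32 in WT and 20 in GFP. Of the Hox genes, 10 of 39 had a start-centred peak in ΔMBD, 18 in ΔCC, 15 in WT and 19 in GFP. Within 500 bp these were 2 in ΔMBD, 7 in ΔCC, 7 in WT and 7 in GFP, so the order of WT and GFP did not hold there. With any linked peak counted, the Hox genes listed were 23 in ΔMBD, 35 in ΔCC, 20 in WT and 34 in GFP.

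**Figure D4:**
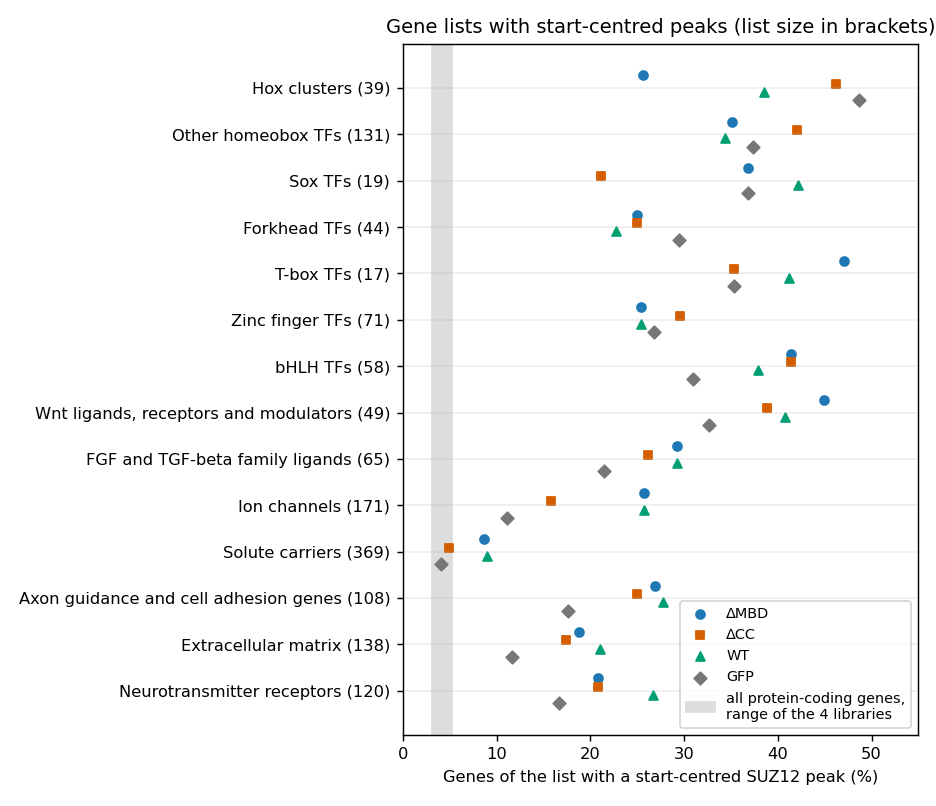
Share of the genes of 14 lists (rows, list size in brackets) with a start-centred SUZ12 peak (x axis, %) in ΔMBD, ΔCC, WT and GFP; the grey band spans the shares of all protein-coding genes in the 4 libraries (3.08% to 5.23%). Ion channels and solute carriers lie lower in ΔCC and GFP than in ΔMBD and WT, as do all protein-coding genes. Homeobox, Hox, forkhead and zinc finger genes do not.

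Among genes with any linked peak, a start-centred one was more frequent at solute carriers, and less frequent at homeobox genes, than over all genes. Of the protein-coding genes with any linked peak, 70.1% had a start-centred one in ΔMBD, 70.0% in ΔCC, 71.4% in WT and 66.7% in GFP. Among listed solute carriers it was 32 of 35 in ΔMBD, 18 of 19 in ΔCC, 33 of 34 in WT and 15 of 16 in GFP. Among listed ion channels it was 44 of 46 in ΔMBD (95.7%, interval 85.2 to 99.5), 27 of 35 in ΔCC (77.1%, 59.9 to 89.6), 44 of 51 in WT (86.3%, 73.7 to 94.3) and 19 of 26 in GFP (73.1%, 52.2 to 88.4). The intervals of the channels in ΔCC and GFP held the shares of all genes. Among listed homeobox genes outside the Hox clusters it was 46 of 111 (41.4%, interval 32.2 to 51.2) in ΔMBD, 55 of 109 (50.5%, 40.7 to 60.2) in ΔCC, 45 of 110 (40.9%, 31.6 to 50.7) in WT and 49 of 107 (45.8%, 36.1 to 55.7) in GFP. The other linked homeobox genes had only peaks centred farther away or shared with a second gene. Neither trait was particular to carriers or homeobox genes. Listed matrix genes (76.2% in GFP to 96.0% in ΔCC) and neurotransmitter receptors (71.4% in ΔMBD to 90.9% in GFP) also lay above all genes in each library. Listed Hox genes lay low in ΔMBD (43.5%), ΔCC (51.4%) and GFP (55.9%), but at 75.0% in WT. Isl1, a LIM homeobox factor of motor neurons and heart, shows several centres around the start. Its start-centred peaks lay at -754, -49 and +902 bp in ΔMBD, -722, -108 and +850 bp in ΔCC, -852, -30 and +779 bp in WT and -656, +169 and +838 bp in GFP. Adamts5, a matrix protease, shows the single form, with 1 linked peak in each library, at +347 bp in ΔMBD, +310 bp in ΔCC, +293 bp in WT and +633 bp in GFP.

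The WT start-centred peaks of these lists were matched in ΔMBD to like degrees and in ΔCC and GFP to unlike ones. Of 49 WT peaks at homeobox genes, 85.7% had a ΔMBD match, 75.5% (interval 61.1 to 86.7) a ΔCC match and 77.6% (63.4 to 88.2) a GFP match. Such shares were not particular to homeobox genes. Peaks at Hox genes had 72.2% in ΔCC and in GFP. Those at helix-loop-helix genes had 70.8% in ΔCC and 79.2% in GFP, and those at axon guidance and adhesion genes 75.8% and 66.7%. Of 57 WT peaks at ion channels, 86.0% had a ΔMBD match, 49.1% (35.6 to 62.7) a ΔCC match and 36.8% (24.4 to 50.7) a GFP match. Of 40 at solute carriers, 32 had a match in ΔMBD, 19 (47.5%) in ΔCC and 18 (45.0%) in GFP. For all WT start-centred peaks the shares were 83.1% in ΔMBD, 53.8% in ΔCC and 45.0% in GFP. The ΔCC and GFP intervals of channels and carriers held these shares, and those of homeobox genes did not. In ΔCC the intervals of Hox (46.5 to 90.3), helix-loop-helix (48.9 to 87.4) and matrix genes (51.3 to 84.4) also held the share of all WT peaks. That of axon guidance and adhesion genes in ΔCC (57.7 to 88.9) did not. In GFP the intervals of Hox, helix-loop-helix and axon guidance genes lay above it, and that of matrix genes held it. Extracellular matrix genes lay between, with 84.8% of 33 WT peaks matched in ΔMBD, 69.7% in ΔCC and 45.5% in GFP. The WT peak was the sole linked peak of its gene in 44.9% of the homeobox peaks, 31.6% of the channel peaks and 45.0% of the carrier peaks. Differences between lists were not tested.

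**Figure D5:**
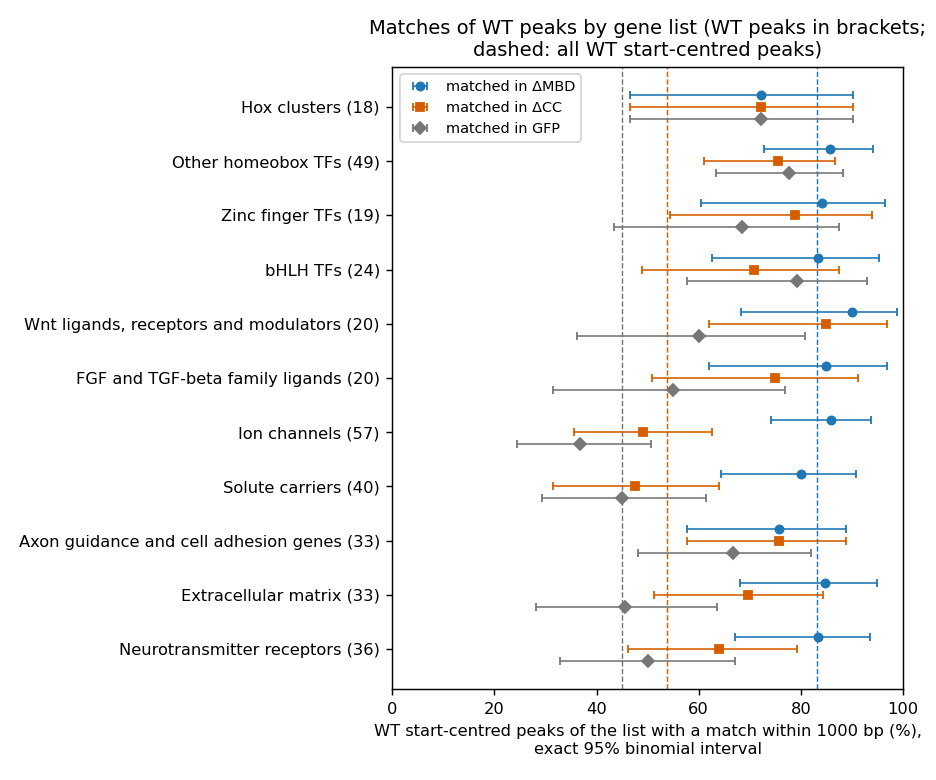
Share of WT start-centred peaks with a match within 1000 bp in ΔMBD, ΔCC and GFP (x axis, %, exact 95% binomial intervals), for lists with at least 15 such peaks (rows, number of WT peaks in brackets); dashed lines mark all WT start-centred peaks. Homeobox peaks lie at 75.5% in ΔCC and 77.6% in GFP, and ion channel peaks at 49.1% in ΔCC and 36.8% in GFP. Hox cluster peaks lie at 72.2% in ΔCC and in GFP.

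Signalling ligands, pluripotency genes and Polycomb genes made up the remaining lists. Of 65 genes for FGF and TGF-beta family ligands and antagonists, 19 had a start-centred peak in ΔMBD, 17 in ΔCC, 19 in WT and 14 in GFP. Fgf5, a ligand of the primed epiblast, had +690 bp in ΔMBD, +500 bp in ΔCC, +443 bp in WT and +613 bp in GFP. Fgf2, Bmp8b and Chrd (chordin, a BMP antagonist) had start-centred peaks in ΔMBD and WT and no linked peak in ΔCC or GFP, Fgf2 at +257 bp in ΔMBD and +156 bp in WT. Of 14 pluripotency genes, 2 had one in ΔMBD, 1 in ΔCC, 3 in WT and 1 in GFP. Prdm14, a zinc finger factor of naive ESCs and germ cells, had +198 bp in ΔMBD and +377 bp in WT and no linked peak in ΔCC or GFP. Esrrb, an orphan nuclear receptor, had no start-centred peak in ΔMBD, and had -24 bp in ΔCC, -807 and +246 bp in WT and +661 bp in GFP. Of 32 genes for Polycomb subunits, 3 had one in ΔMBD, 2 in ΔCC, 2 in WT and 3 in GFP. Yaf2, a partner of the RING proteins of PRC1, had -693 and +526 bp in ΔMBD and -215 bp in WT and no linked peak in ΔCC or GFP.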

How the data were processed

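SUZ12 ChIP-seq peaks of 4 libraries were used, 1 per group. Per the submitters' processing notes, reads were converted with bcl2fastq 2.18.0.12, peaks were called with MACS2, and the build was mm9. The aligner, settings, peak threshold and use of the input: not given in the sources used here. Per the file headers, the authors linked the peaks of each library to genes with GREAT 3.0.0, with at most 2 neighbouring genes per peak, an extension of up to 5000 bp, and curated domains included. The deposited tables list, per gene, the linked peak names and a signed distance to the start site in bp for each, taken as that of the peak's centre. No width, height, p-value or read number is in them, so depth is unknown.

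Links over 5000 bp were left out, and lines of the same symbol were joined. Of 1627 gene symbols with a start-centred peak, 1541 matched a RefSeq symbol (GRCm38.p6), 50 matched 1 synonym and 36 neither, 3 of them dates made by a spreadsheet. Gene lists are symbol patterns over protein-coding symbols. Named genes were those with the smallest and largest spread of centres, those closest to the start in each pattern of libraries, and list members in alphabetical order; Esrrb, Neurog2 and Twist1 were picked after their values were seen. The members and lists were chosen with earlier results of these data known. No comparison has a test. Alternatives were a window of 500 bp, peaks of 2 genes kept, all deposited links, match distances of 500 and 2000 bp, matches to start-centred peaks only, and sole peaks only. The functions were tested on simulated data. SciPy 1.17.1 gave the exact intervals and NumPy 2.4.6 the quartiles, under Python 3.11.15, and matplotlib 3.10.9 drew the figures.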

Additional observations from a re-analysis of the deposited data

How the results depend on the processing

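With a window of 500 bp the start-centred peaks numbered 714 in ΔMBD, 517 in ΔCC, 720 in WT and 399 in GFP, so WT then exceeded ΔMBD. Genes with a WT start-centred peak that had one in another library were then 53.0% for ΔMBD, 37.1% for ΔCC and 30.5% for GFP, in the order of the wider window. GFP peaks were then matched at 81.7% in ΔMBD, 84.7% in ΔCC and 85.0% in WT, and downstream shares were 64.3% in ΔMBD and 66.7% in WT. Matching within 500 bp gave 64.0% of WT peaks in ΔMBD, 40.5% in ΔCC and 34.1% in GFP, 55.9% of GFP peaks in ΔMBD, 61.1% in ΔCC and 56.5% in WT, and 38.4% of ΔMBD peaks in ΔCC. Within 2000 bp it gave 89.6% of WT peaks in ΔMBD, 58.9% in ΔCC and 50.9% in GFP, 91.1% of GFP peaks in ΔMBD, 91.2% in ΔCC and 92.2% in WT, and 59.7% of ΔMBD peaks in ΔCC. Against start-centred peaks only it gave 73.7% of WT peaks in ΔMBD, 48.6% in ΔCC and 40.4% in GFP, 66.8% of GFP peaks in ΔMBD, 71.8% in ΔCC and 70.0% in WT, and 48.1% of ΔMBD peaks in ΔCC. For sole peaks of a gene it gave 79.2% of WT peaks in ΔMBD, 49.0% in ΔCC and 40.7% in GFP, 88.5% of GFP peaks in ΔMBD and 90.2% in WT, and 46.5% of ΔMBD peaks in ΔCC. Sole peaks lay downstream at 78.5% in ΔMBD, 78.2% in ΔCC, 79.6% in WT and 78.7% in GFP. In each setting fewer WT peaks were matched in GFP than in ΔCC, and fewer in ΔCC than in ΔMBD. The order of the GFP shares changed, since WT led ΔCC within 2000 bp, with the narrow window and for sole peaks, where ΔCC (80.3%) was lowest. The cause was not tested. Keeping peaks of 2 genes, or counting all deposited links, left the numbers of peaks within 1.5 times. Keeping peaks of 2 genes also left the downstream shares and the shares of WT genes within their intervals, and match shares were not run under either. Of the 68 list counts, 43 moved by more than 1.5 times with the narrow window and none with peaks of 2 genes kept. Widths, heights and depth are not given, so a missing peak does not show missing SUZ12, and a region divided into several peaks cannot be told from several sites. No paired analysis was possible because each group has 1 library and no test was made.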
